A study of Rattus norvegicus with 22 samples.

Results

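Rat engineered cardiac tissue that was stretched while the kinase inhibitor BIRB796 was present was compared with tissue that had neither. The comparison holds 8 of the 22 arrays of the study: replicates 1 to 4 of stretch with BIRB796 and replicates 4 to 7 of the untreated control, chosen by their titles because all 8 were scanned in one session. Each tissue was a cylinder of matrix and ventricular cells from Sprague Dawley rat embryos of gestational day 14.5, held at both ends and cultured for 7 days. In the treated group, cyclic stretch at 0.5 Hz and 5% elongation and 10 µM BIRB796 were applied from culture day 5, and the labels give 48 h for the stretch. Control tissue was anchored in the same way, was not stretched and received no inhibitor, and whether it received the vehicle is not given in the sources used here. The same session also held 4 arrays of BIRB796 without stretch, which allow the step from BIRB796 to stretch with BIRB796 to be measured. Stretch without BIRB796 was not in this session, so its values come from 3 stretch and 3 control arrays of an earlier session. The design text calls the replicates biological. Which embryos or litters stand behind each tissue is not given in the sources used here, and each p-value refers to the variation among these arrays, which may be technical.

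Stretch of heart muscle is sensed at the sarcomere, at the cell membrane and at focal adhesions, where integrins join the matrix to the actin cytoskeleton. One of the signalling routes it activates is the p38 mitogen-activated protein kinase (MAPK) cascade, in which the upstream kinases encoded by Map2k3 and Map2k6 phosphorylate p38 and p38 phosphorylates kinases such as that encoded by Mapkapk2. The treatment protocol gives BIRB796 as an inhibitor of p38, although tyrosine kinase stands in the title of the series. An inhibitor acts on protein activity, which an array does not measure. In loaded hearts the natriuretic peptide genes Nppa and Nppb and fetal contractile genes are known markers of hypertrophy. Embryonic ventricle also holds fibroblasts, smooth muscle cells, endothelium, epicardium and macrophages, so that in this material fewer cells of a type and less RNA per cell cannot be told apart.

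Values below are log2 probe signals relative to the 75th percentile of the array, and a difference of 1 is a 2-fold change. On the 8 arrays the 75th percentile lay between 1237 and 2135 signal units, and 71.4% to 78.3% of probes were well above background. The arrays lay on 4 slides. Slide 6 held control replicate 4, BIRB796 replicate 1 and stretch with BIRB796 replicate 1, slide 7 held control replicates 5 and 6, slide 8 held control replicate 7 with stretch with BIRB796 replicates 2 and 3, and slide 9 held stretch with BIRB796 replicate 4 and the other BIRB796 arrays. The slide 6 arrays stood apart on the second principal component (19.4% of the variance), at 32.4 to 35.4 against 7.00 or less on the others. On the first component (32.2%) control replicate 7 lay at -7.38, between the other controls (-48.3 to -37.6) and the stretch with BIRB796 arrays (8.17 to 46.5). All 15 cardiomyocyte markers, among them Myh6, Tnnt2 and Actc1, were above background on all 12 arrays of the session, and none passed the test between the 2 groups (median -0.06).

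Stretch with BIRB796 differed from control at 2252 of 20192 genes tested, or 11.2% (limma, Benjamini-Hochberg adjusted p under 0.05). Of these, 963 were higher (4.77% of the genes tested) and 1289 lower (6.38%), and 482 differed by at least 2-fold, 130 higher and 352 lower. Before adjustment 5762 genes had a p under 0.05. The median difference of all genes was 0.04. The 4 treated arrays lay wholly above the 4 controls at 2003 genes (9.92%) and wholly below them at 1913 (9.47%), or 3916 in all (19.4%), which include 1974 of the 2252. Of the 2252, 2247 had the same direction on slide 6 and 2207 on slide 8, the slides that held both groups. The arrays of these slides also made the calls, so this agreement was largely set in advance and is no separate evidence. The count depended on single arrays. It was 683, 475, 590 and 4391 without control replicate 4, 5, 6 or 7 in turn, and 1183, 1843, 1524 and 1048 without stretch with BIRB796 replicate 1, 2, 3 or 4. Without the 3 arrays of slide 6 it was 379, with slide as a fixed term 88, and with all arrays of the study and the scan session as a term 23 (0.098%), of which 5 were higher (0.0213%) and 18 lower (0.0767%). Control replicates 5 and 6, which share slide 7, differed by 1.20 times the spread between repeated spots of an array, and stretch with BIRB796 replicates 2 and 3, which share slide 8, by 1.37 times. The count was 560 with control replicates 5 and 6 averaged and 12 with the arrays of a group on each slide averaged. All 2252 genes kept their direction in these settings, except 1 gene in the fit of all arrays. These settings reuse the arrays that made the calls, so they do not test the directions anew.

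**Figure D1:**
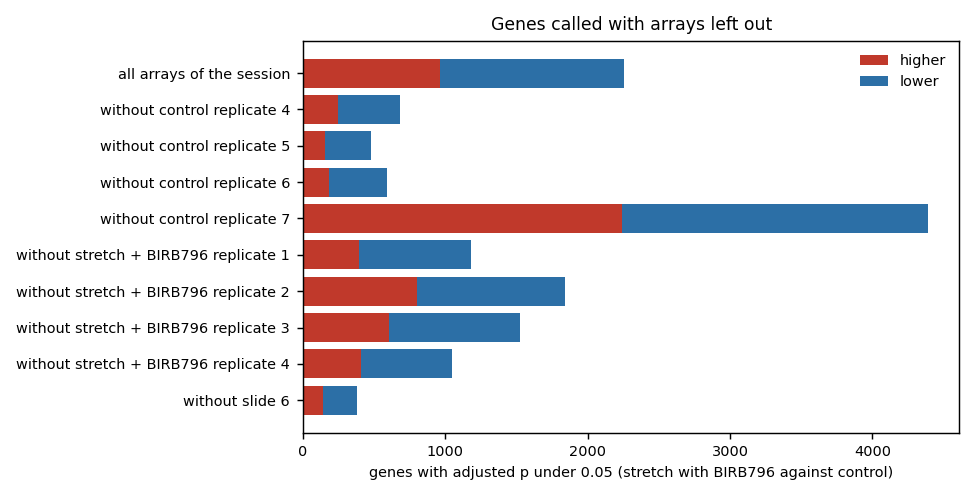
Number of genes past adjusted p 0.05 between stretch with BIRB796 and control (horizontal axis, split into higher and lower) with all arrays of the session, with each of the 8 compared arrays left out in turn, and without the 3 arrays of slide 6. The bar is longest without control replicate 7 (4391 genes) and shortest without slide 6 (379).

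Genes of the contractile machinery that rose included Myh3, Actg2, Lmod1, Tpm2 and Tagln. Myh3, the embryonic myosin heavy chain, read -3.76, -3.30, -3.65 and -2.77 on control replicates 4 to 7 and 0.42, -0.61, -0.83 and -0.59 on stretch with BIRB796 replicates 1 to 4. The groups were far apart, with a difference of 2.97 ± 0.31 (SE, n = 4 arrays a group), or 7.82-fold, and limma's adjusted p was 0.00199. Its probe lies on chromosome 10 at 53800570 to 53800629 in the array annotation's coordinates (build rn4), which name no exon. Actg2, an actin of visceral smooth muscle, read 1.70 to 2.38 in control and 3.77 to 5.30 in stretch with BIRB796, again without overlap. It rose by 2.35 ± 0.33 (adjusted p = 0.00571), and a second probe gave 2.44 ± 0.34. Lmod1, which nucleates actin filaments in smooth muscle, rose by 1.83 ± 0.27 (adjusted p = 0.00668), and Tpm2, the beta tropomyosin, by 1.25 ± 0.20. Tagln, an actin-binding protein of smooth muscle, read 4.14 to 4.83 in control and 5.31 to 6.18 in stretch with BIRB796 and rose by 1.22 ± 0.21 (adjusted p = 0.00956). In all 5 genes the treated array of slide 6 was the highest of its group and control replicate 7, on slide 8, the highest control, and the difference on slide 6 was larger than on slide 8, 4.18 against 2.04 for Myh3 and 1.94 against 0.58 for Tagln. All 5 kept an adjusted p under 0.05 with each of the 8 arrays left out and without slide 6. With slide as a fixed term Myh3 and Actg2 kept it (both 0.0437).

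Among 22 sarcomere and contractile genes 2 rose (9.09%, against 4.77% of all genes) and 1 fell (4.55%, against 6.38%), so that the list stood near the background. The risen genes were Tpm2 and Nexn, a filament-binding protein of the Z-disc (0.40 ± 0.11, adjusted p = 0.0442), and the fallen one was Myom2, which cross-links thick filaments in the M-band (-0.79 ± 0.15, adjusted p = 0.0131). The rise of Nexn was not called without control replicate 4, 5 or 6 or stretch with BIRB796 replicate 1, 2 or 4 (adjusted p up to 0.123). The count of rises was 1 without any one of these 6 arrays and 4 without control replicate 7. The ventricular and atrial chains of the working myocardium did not pass the test: Myh6 differed by 0.10 ± 0.11, Myh7 by 0.21 ± 0.15, Tnnt2 by 0.07 ± 0.12, Actc1 by 0.19 ± 0.14 and Acta1 by -0.06 ± 0.17. Myh6 read 7.93 to 8.46 in control and 8.20 to 8.29 in stretch with BIRB796, so the treated arrays lay within the range of the controls. The list's median was 0.09, and -0.10 with normexp and quantile scaling. Among 28 calcium handling and ion channel genes 1 rose (3.57%, against 4.77% of all genes) and 4 fell (14.3%, against 6.38%). Atp2a2, the calcium pump of the sarcoplasmic reticulum, fell by 0.45 ± 0.09 on 1 probe (adjusted p = 0.0138), while its other probe gave -0.11 ± 0.08. Without control replicate 4, 5 or 6, 1, 0 and 1 of these genes fell and none rose. None rose without stretch with BIRB796 replicate 1, 2 or 4 either, 2 fell without replicate 1 or 4, and 4 rose without control replicate 7.

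**Figure D2:**
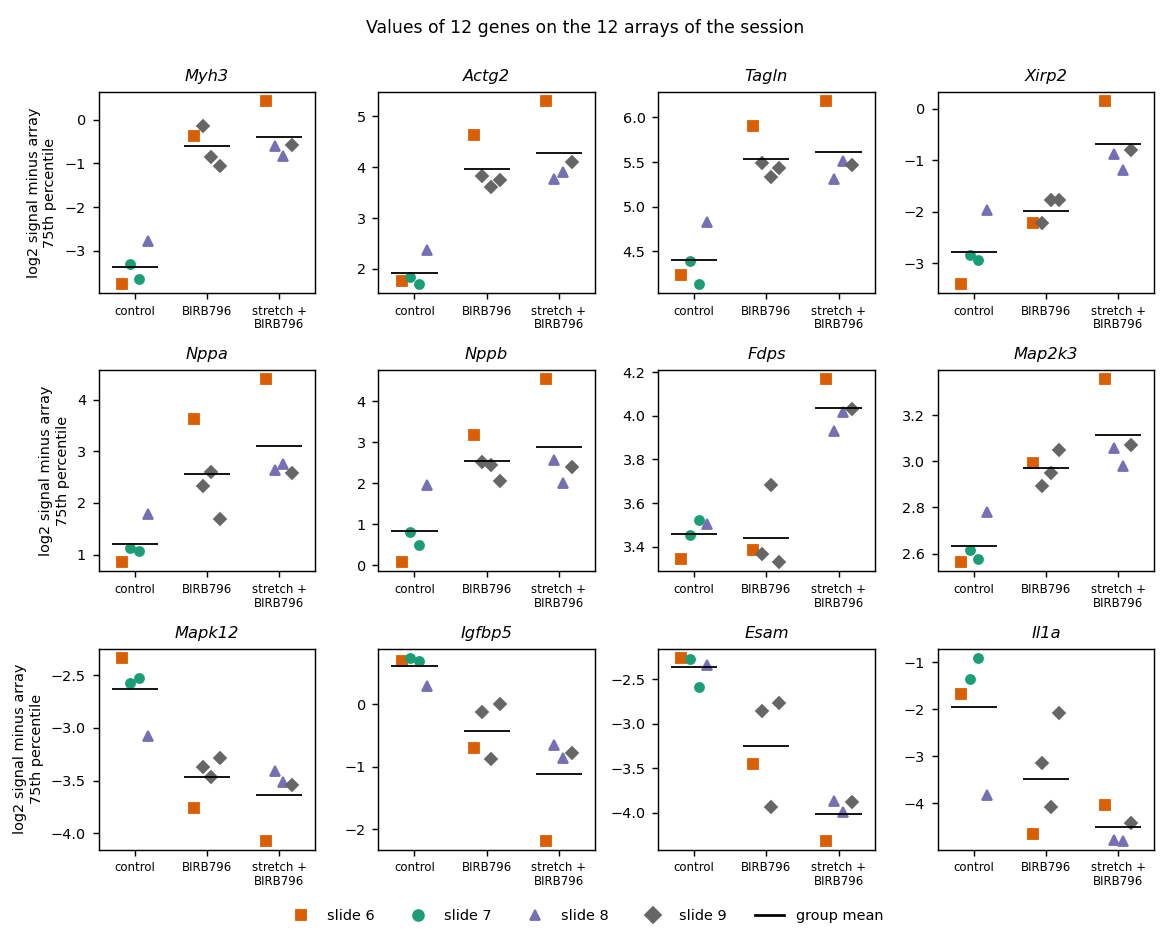
Log2 signal less the array's 75th percentile (vertical axes) of 12 genes on the 12 arrays of the session, by group, with marker shape and colour giving the slide and a line at the group mean. Myh3, Actg2 and Tagln are higher in both BIRB796 groups than in control, Fdps is higher in stretch with BIRB796 than in both other groups, and Mapk12, Igfbp5 and Esam are lower in stretch with BIRB796 than in every control.

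Genes known to respond to load rose in part. Of 21 genes of cardiac stretch and hypertrophy 19 were positive and 5 rose (23.8%, against 4.77% of all genes), with a list median of 0.35. With BIRB796 alone against control the median was 0.25 and 2 rose, where 1.84% of all genes did. Between BIRB796 and stretch with BIRB796 the median was 0.08 and none passed. Nppa, the atrial natriuretic peptide, read 0.85, 1.12, 1.07 and 1.78 on the controls and 4.39, 2.64, 2.76 and 2.59 on the treated arrays. It rose by 1.89 ± 0.46, or 3.70-fold (adjusted p = 0.0274), by 3.54 on slide 6 and 0.92 on slide 8. Nppb, the B-type natriuretic peptide, read 0.07 to 1.96 in control and 2.01 to 4.53 in stretch with BIRB796, with control replicate 7 just below the lowest treated array. It rose by 2.04 ± 0.54 (adjusted p = 0.0353), by 4.45 on slide 6 and 0.33 on slide 8. Xirp2, an actin-binding protein of the intercalated disc, read -3.40 to -1.96 in control and -1.18 to 0.14 in stretch with BIRB796 and rose by 2.10 ± 0.32 (adjusted p = 0.00753). Fhl1, a LIM protein of the sarcomere, rose by 0.84 ± 0.19 (adjusted p = 0.0228), by 1.60 on slide 6 and 0.28 on slide 8. It lost its call without control replicate 4, 5 or 6 or stretch with BIRB796 replicate 4 (adjusted p up to 0.0708). Csrp3, the muscle LIM protein, rose by 0.41 ± 0.12 (adjusted p = 0.0442). Xirp2 kept its call with each array left out. Nppa lost it without control replicate 4, 5 or 6 or stretch with BIRB796 replicate 1 (adjusted p up to 0.0804), and Nppb without these or stretch with BIRB796 replicate 2 or 4 (adjusted p up to 0.102). The list's count of rises was 1 without control replicate 4, 5 or 6, 9 without control replicate 7, and 2 without stretch with BIRB796 replicate 1 or 4. Without slide 6 it was 2. In unstretched tissue with BIRB796, Fhl1 was higher than in control by 0.93 ± 0.19, which passed, and Nppb by 1.71 ± 0.54, which did not. From BIRB796 to stretch with BIRB796 these 2 genes differed by -0.09 ± 0.19 and 0.33 ± 0.54, and neither passed.

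Several genes of this list and of the growth factor response did not pass the test. Ankrd1, a stretch-responsive nuclear cofactor, differed by 0.57 ± 0.19, Ccn2, connective tissue growth factor, by 0.79 ± 0.32, and Tnc, the matrix glycoprotein tenascin C, by 0.50 ± 0.17 (adjusted p = 0.0776). Areg, a ligand of the epidermal growth factor receptor, read -4.41 to -2.92 on the controls and -3.19 to -1.27 on the treated arrays, which overlap, and differed by 1.36 ± 0.42 (adjusted p = 0.0567). Its relatives Hbegf and Ereg differed by 0.75 ± 0.34 and 0.78 ± 0.38. Of 12 genes of this ligand and receptor family none passed, while without control replicate 7, 1 rose and 2 fell, and without stretch with BIRB796 replicate 2, 1 rose. The AP-1 factor Fosl1 differed by 0.80 ± 0.32. Of 22 immediate early genes 2 rose (9.09%, against 4.77% of all genes), so that this list too stood near the background. Both encode orphan nuclear receptors: Nr4a3 (1.14 ± 0.29, adjusted p = 0.0309) and Nr4a2 (0.43 ± 0.12, adjusted p = 0.0405). A second probe of Nr4a3 gave -0.09 ± 0.31. No immediate early gene rose without control replicate 4, 5 or 6 or stretch with BIRB796 replicate 1 or 4, and 1 rose without stretch with BIRB796 replicate 2.

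Among 30 genes of the p38 pathway 1 rose (3.33%, against 4.77% of all genes) and 3 fell (10%, against 6.38%), with a list median of 0.02. These shares are near those of all genes. Mapk14, which encodes p38 alpha, read 3.90 to 4.05 in control and 4.02 to 4.19 in stretch with BIRB796, and its difference was 0.15 ± 0.07 (adjusted p = 0.168). Mapkapk2 differed by 0.03 ± 0.07. Mapk12, which encodes p38 gamma, read -2.34, -2.58, -2.53 and -3.07 on the controls and -4.07, -3.41, -3.52 and -3.54 on the treated arrays. It fell by 1.01 ± 0.18, so that its signal was 2.01-fold lower (adjusted p = 0.0108). Map2k3 read 2.56 to 2.78 in control and 2.98 to 3.35 in stretch with BIRB796 and rose by 0.48 ± 0.09 (adjusted p = 0.0118). Mapk12 and Map2k3 kept their calls with each array left out, and without slide 6 the former had an adjusted p of 0.0434 and the latter of 0.0691. Mknk1 and Mapkapk3, kinases downstream of p38, fell by 0.50 ± 0.13 (adjusted p = 0.0330) and 0.35 ± 0.10 (adjusted p = 0.0437). Without control replicate 4, 5 or 6 or stretch with BIRB796 replicate 1 or 2 a single gene of the pathway fell, and without control replicate 7, 3 rose. Among 17 MAPK phosphatases and feedback genes 2 rose (11.8%, against 4.77% of all genes) and 1 fell (5.88%, against 6.38%). The risen ones were Dusp14 (0.50 ± 0.10) and the receptor feedback inhibitor Errfi1 (0.67 ± 0.16, adjusted p = 0.0235). Both were also called between BIRB796 alone and control, at 0.58 ± 0.10 and 1.12 ± 0.16. The fallen one was Dusp6, a phosphatase of ERK (-0.48 ± 0.13, adjusted p = 0.0432). Without control replicate 5 or 6 none of the list passed. Dusp6 also lost its call without control replicate 4 or stretch with BIRB796 replicate 2, 3 or 4. A single gene rose without control replicate 4 or stretch with BIRB796 replicate 1 or 4. Dusp1, a phosphatase of p38, differed by 0.05 ± 0.32, with stretch with BIRB796 replicate 1 at -1.25 against -2.93 to -2.74 on the other 3.

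Between BIRB796 alone and stretch with BIRB796, sterol and fatty acid synthesis was the list with the most genes called. These genes encode the enzymes that make cholesterol from acetyl units and the proteins that regulate them, and in most cells they are known to rise and fall together under the SREBP transcription factors. Against control 13 of 28 genes of sterol and fatty acid synthesis rose (46.4%, against 4.77% of all genes), and 27 were positive (median 0.36). Against BIRB796 alone 5 rose, where 0.0891% of all genes did, and all 28 were positive (median 0.47). BIRB796 alone against control gave a median of -0.07, with 5 positive, none risen and 1 fallen, where 1.84% of all genes rose and 1.84% fell. These comparisons share arrays, so their values are given side by side and are not independent. Fdps, farnesyl diphosphate synthase, read 3.34, 3.45, 3.52 and 3.50 on the controls, 3.38, 3.37, 3.68 and 3.33 with BIRB796 alone and 4.17, 3.93, 4.02 and 4.03 with stretch and BIRB796. All 4 stretched arrays were above the other 8. The difference was 0.58 ± 0.09 from control (adjusted p = 0.00758) and 0.60 ± 0.09 from BIRB796 (adjusted p = 0.0429). Lss, lanosterol synthase, read 0.36 to 0.63 in control, 0.40 to 0.61 with BIRB796 and 0.95 to 1.16 with both, and differed by 0.52 ± 0.08 from control (adjusted p = 0.00758) and 0.56 ± 0.08 from BIRB796 (adjusted p = 0.0337). Insig1, which holds SREBP inactive when sterols abound, read 1.62 to 1.83, 1.36 to 1.53 and 1.98 to 2.31 in these groups, with differences of 0.38 ± 0.09 from control and 0.69 ± 0.09 from BIRB796 (adjusted p = 0.0171). Sqle, squalene epoxidase, differed by 0.40 ± 0.09 and 0.59 ± 0.09 (adjusted p = 0.0432 from BIRB796). Scd, a fatty acid desaturase, was lower with BIRB796 alone (-0.73 ± 0.12, adjusted p = 0.0188) and higher by 1.01 ± 0.12 with stretch than without it (adjusted p = 0.0171), and 0.28 ± 0.12 from control (adjusted p = 0.158).

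The sterol counts also depended on the arrays. Without control replicate 4, 5 or 6 the rises from control were 6, 6 and 7, without stretch with BIRB796 replicate 4 they were 8, and without slide 6 they were 2, with a median of 0.28. Fdps, Lss, Idi1 and Hsd17b7 kept their calls against control with each of the 8 arrays left out, and Lss and Hsd17b7 also without slide 6 (adjusted p = 0.0463 and 0.0318). Against BIRB796 the calls were near the threshold. Fdps, Lss and Sqle were each called with 1 of the 8 compared arrays left out and Insig1 and Scd with 4 of 8, while the difference of Fdps stayed between 0.55 and 0.68 and that of Lss between 0.52 and 0.60.

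The promoters of genes of this list that rose are shown because the genes moved together and because most hold a CCAAT box, the site of the factor NF-Y. They are the 250 bases before the RefSeq start site of build GRCr8, written 5′ to 3′ on the gene's strand, with CCAAT or its reverse complement ATTGG in capitals. The enzymes are Fdps and Lss, described above, Idi1, isopentenyl diphosphate isomerase, Hmgcs1, HMG-CoA synthase, and Hsd17b7, a sterol reductase.
Fdps, chr2:176804817-176805066, minus strand: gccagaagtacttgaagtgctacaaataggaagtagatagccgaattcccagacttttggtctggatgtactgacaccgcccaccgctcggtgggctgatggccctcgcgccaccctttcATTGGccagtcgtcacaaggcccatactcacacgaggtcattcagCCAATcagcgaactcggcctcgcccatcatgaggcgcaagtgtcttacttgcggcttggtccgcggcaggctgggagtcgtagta
Idi1, chr17:66547525-66547774, minus strand: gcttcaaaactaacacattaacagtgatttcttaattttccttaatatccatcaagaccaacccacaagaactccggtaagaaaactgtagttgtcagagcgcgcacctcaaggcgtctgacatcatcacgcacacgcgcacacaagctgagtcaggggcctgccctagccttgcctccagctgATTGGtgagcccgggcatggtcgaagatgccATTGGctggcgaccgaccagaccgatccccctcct
Lss, chr20:12118231-12118480, minus strand: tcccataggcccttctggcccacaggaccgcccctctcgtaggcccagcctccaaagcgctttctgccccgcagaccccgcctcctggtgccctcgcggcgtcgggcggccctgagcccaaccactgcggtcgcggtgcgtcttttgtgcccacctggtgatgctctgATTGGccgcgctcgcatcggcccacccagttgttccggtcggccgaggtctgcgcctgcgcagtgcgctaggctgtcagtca
Hmgcs1, chr2:53382054-53382303, plus strand: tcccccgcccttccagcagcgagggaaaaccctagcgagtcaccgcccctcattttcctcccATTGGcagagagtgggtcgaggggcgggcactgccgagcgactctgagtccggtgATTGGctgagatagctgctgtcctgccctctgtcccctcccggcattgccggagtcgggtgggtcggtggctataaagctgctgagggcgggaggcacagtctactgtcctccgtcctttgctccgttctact
Hsd17b7, chr13:84722755-84723004, minus strand: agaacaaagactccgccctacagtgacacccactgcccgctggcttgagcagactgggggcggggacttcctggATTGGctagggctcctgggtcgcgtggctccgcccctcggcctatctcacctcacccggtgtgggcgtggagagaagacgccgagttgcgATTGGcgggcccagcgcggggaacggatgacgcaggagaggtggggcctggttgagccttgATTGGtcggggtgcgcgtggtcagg

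In windows of 300 bases that reach 50 bases past the start, CCAAT on either strand was found in 13 of the 17 promoters of this list that the table holds (76.5%), against 37.7% of all 27457 promoters. The 4 without it were those of Cyp51 and Acat2, which rose, and of Dhcr7 and Scd, which did not pass. Of those with it, Nsdhl, Mvd, Mvk, Srebf1 and Srebf2 did not pass against control, and the others rose. Over all genes CCAAT was in 32% of the promoters of genes that rose. It was in 36.5% for genes that fell and 37.7% for genes tested. Whether CCAAT has a part in the rise of the list was not tested. A single fixed pattern for the sterol regulatory element of SREBP, searched on both strands, was in none of the 17 and in 0.251% of all promoters. Variants of this element were not searched, so whether these promoters lack it was not tested. The Nppb promoter holds a TEAD motif, GGAATG, on the plus strand in its 250 bases at chr5:163699758-163700007, shown in capitals.
Nppb: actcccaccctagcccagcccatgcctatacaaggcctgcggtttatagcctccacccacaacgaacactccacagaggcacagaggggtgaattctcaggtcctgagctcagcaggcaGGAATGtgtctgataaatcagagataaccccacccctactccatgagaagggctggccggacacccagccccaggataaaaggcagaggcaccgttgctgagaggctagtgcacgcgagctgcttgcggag
That motif, on either strand, was in 13.7% of the promoters of genes that rose, 9.52% of those of genes that fell, 11.6% of those of the genes tested and 13.9% of all promoters. The genes tested are the set from which calls could come, and the table holds 11450 of their promoters. The cAMP response element TGACGTCA was in 2.84% for genes that rose, which is level with the 2.88% of genes tested, in 0.508% for genes that fell and in 1.91% of all promoters. The AP-1 motif TGANTCA was in 5.05% for genes that rose, 7.61% for genes that fell, 5.41% for genes tested and 7.33% of all promoters. The CArG box of serum response factor was in 1.89%, 0.254%, 1.29% and 1.64%, in the same order. No CArG box was found in the 12 promoters of smooth muscle and pericyte markers that the table holds.

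**Figure D3:**
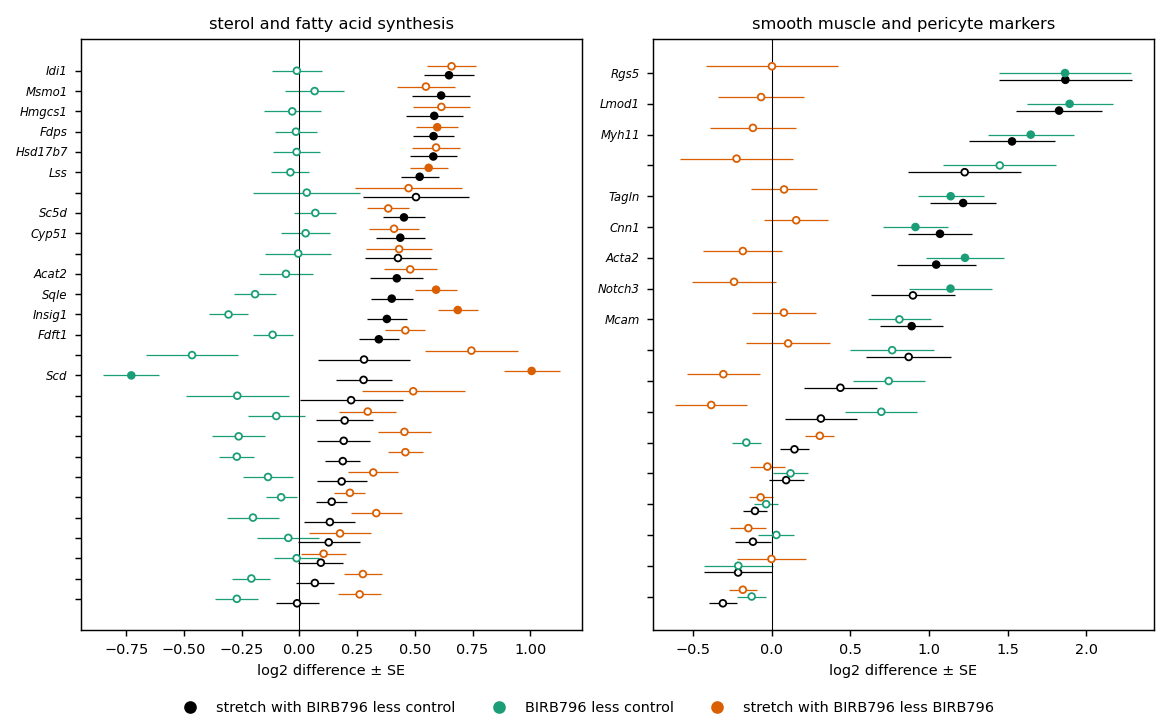
Log2 differences with their standard errors (horizontal axes) for tested genes of the sterol and fatty acid synthesis list and of the smooth muscle and pericyte list, in 3 comparisons of the same 12 arrays; filled points passed adjusted p 0.05, and names are given beside those that passed in at least 1 comparison. Sterol genes are near 0 or below it with BIRB796 alone and above 0 with stretch and BIRB796, while the smooth muscle markers that differ from control do so by like amounts with and without stretch.

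Beside the sterol genes few genes separated stretch with BIRB796 from BIRB796 alone. In all 25 passed (0.124%; 18 higher and 7 lower), and 1810 had an unadjusted p under 0.05. Among the 7 that were lower (0.0347% of all genes), Angptl4, an inhibitor of lipoprotein lipase, read -1.56 to -0.87 with BIRB796 and -2.54 to -1.99 with both (-1.06 ± 0.15, adjusted p = 0.0326). Against control it differed by 0.51 ± 0.15 with BIRB796 alone (adjusted p = 0.0796) and by -0.55 ± 0.15 with both (adjusted p = 0.0403). Of the fits of Angptl4 with 1 of 8 arrays left out, 2 kept the call against BIRB796 (adjusted p up to 0.115) and 2 the call against control (up to 0.113). Gli1, the transcription factor and target of Hedgehog signalling, read -2.87 to -2.62 in control, -3.25 to -2.93 with BIRB796 and -3.93 to -3.60 with both. It differed by -0.99 ± 0.10 from control and by -0.66 ± 0.10 from BIRB796 (adjusted p = 0.00199 and 0.0444). Against control Gli1 kept its call with each of the 8 arrays left out and without slide 6. Against BIRB796 its call held in 1 of 8 such fits. The count of 25 was 13, 0, 34 and 0 without BIRB796 replicate 1, 2, 3 or 4, and 21, 11, 2 and 0 without stretch with BIRB796 replicate 1, 2, 3 or 4.

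BIRB796 alone differed from control at 742 genes (3.67%; 371 higher and 371 lower), and 4453 had an unadjusted p under 0.05. The values of 6 genes named above are set side by side here, and the comparisons share arrays. Myh3 was higher by 2.76 ± 0.31 with BIRB796 alone (adjusted p = 0.0127) and differed by 0.20 ± 0.31 between stretch with BIRB796 and BIRB796. Actg2 gave 2.04 ± 0.33 and 0.32 ± 0.33, Lmod1 1.89 ± 0.27 and -0.07 ± 0.27, and Tagln 1.14 ± 0.21 and 0.08 ± 0.21 in the same 2 comparisons. Nppa gave 1.35 ± 0.46 (adjusted p = 0.118) and 0.54 ± 0.46 (adjusted p = 0.797). Xirp2 gave 0.79 ± 0.32 (adjusted p = 0.180) and 1.30 ± 0.32 (adjusted p = 0.212), so that neither step passed where the whole difference did. The difference between stretch and no stretch in the presence of BIRB796 was thus not called for any of these 6 genes, and its standard error of 0.21 to 0.46 leaves room for changes of that order. The count of 742 was 18, 0, 0 and 2746 without control replicate 4, 5, 6 or 7, and 133, 206, 533 and 207 without BIRB796 replicate 1, 2, 3 or 4.

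Smooth muscle and pericyte markers had the highest median of the lists. Of 18 tested, 7 rose in stretch with BIRB796 (38.9%, against 4.77% of all genes, median 0.88). With BIRB796 alone 7 rose, where 1.84% of all genes did. Beside Lmod1 and Tagln, Myh11, the smooth muscle myosin heavy chain, read -2.77 to -1.94 in control and -1.31 to -0.31 in stretch with BIRB796 and rose by 1.53 ± 0.27 (adjusted p = 0.0104). Acta2, smooth muscle alpha actin, rose by 1.05 ± 0.25 and Rgs5, a regulator of G protein signalling found in pericytes, by 1.87 ± 0.42 (adjusted p = 0.0212). Acta2 and Actg2 encode almost the same protein, and whether their probes tell them apart was not tested. Smtn, Pln and Mylk, of the same list, were at -0.12 ± 0.12, -0.11 ± 0.08 and -0.31 ± 0.09 and did not pass. The summed relative signal of the list was 186 to 232 on the control arrays and 228 to 290 on the treated ones. The count of rises was 4 without control replicate 4, 5 or 6, 11 without control replicate 7 and 5 without slide 6.

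Of genes of the matrix and of its attachment to the cell, those that passed rose. Of 35 extracellular matrix genes 11 rose (31.4%, against 4.77% of all genes, median 0.32). Of 28 focal adhesion and actin genes 11 rose (39.3%, median 0.35). Fbln5, a protein of elastic fibres, read 1.12 to 1.56 in control and 2.55 to 3.63 in stretch with BIRB796 and rose by 1.53 ± 0.28 (adjusted p = 0.0109). Loxl1, which cross-links elastin, rose by 0.76 ± 0.12 (adjusted p = 0.00800). Smoc1, a matricellular protein, rose by 2.37 ± 0.36, with 2 of 4 controls above background. Flna, filamin A, which cross-links actin, rose by 0.61 ± 0.11 (adjusted p = 0.00991), Parva, the parvin that binds integrin-linked kinase, by 0.43 ± 0.08, and Ptk2, focal adhesion kinase, by 0.34 ± 0.07 (adjusted p = 0.0170). The collagen Col1a1 differed by 0.31 ± 0.15 (control replicate 4 had no value after flagged spots were left out) and periostin, Postn, by 0.29 ± 0.15, and neither passed. Fbln5, Loxl1, Smoc1, Flna and Parva kept their calls with each array left out. The matrix count was 4, 2, 3 and 18 without control replicate 4, 5, 6 or 7, and 7 and 6 without stretch with BIRB796 replicate 1 or 4. The focal adhesion count was 3 without control replicate 4, 5 or 6, 17 without control replicate 7 and 7 without stretch with BIRB796 replicate 1. Without slide 6 these counts were 2 and 1. With normexp and quantile scaling 3 matrix genes also fell. BIRB796 alone against control raised 6 genes of each list, where 1.84% of all genes rose. Fbln5, Loxl1, Smoc1, Flna, Parva and Ptk2 were called there too, at 1.405, 0.75, 2.19, 0.57, 0.44 and 0.34. From BIRB796 to stretch with BIRB796 these genes differed by -0.01 to 0.18, and no gene of either list passed.

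Of 20 fibroblast markers 5 rose (25%, against 4.77% of all genes) and 1 fell (5%, against 6.38%), with a median of 0.27. Vim, vimentin, rose by 0.57 ± 0.12 (adjusted p = 0.0181) and S100a4, a calcium-binding protein of fibroblasts, by 0.54 ± 0.09 (adjusted p = 0.00791), while Pdgfra, the alpha receptor for platelet-derived growth factor, fell by 0.59 ± 0.16 (adjusted p = 0.0401). The summed signal of the list was 329 to 550 on the controls and 539 to 582 on the treated arrays. The sum of control replicate 4 lacks Col1a1, a bright member that had no value there, so these ranges are not of quite the same genes. The rises were 1 without control replicate 4, 5 or 6, 9 without control replicate 7 and 2 without stretch with BIRB796 replicate 1 or 4. Pdgfra lost its call without control replicate 4, 5 or 6 or stretch with BIRB796 replicate 1, 3 or 4, and without control replicate 7, 3 markers fell.

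Of 27 genes of TGF-beta and BMP signalling 5 rose (18.5%, against 4.77% of all genes). A further 2 fell (7.41%, against 6.38%), a share near the background. Grem1, a secreted inhibitor of BMPs, read 0.27 to 0.85 in control and 2.19 to 3.65 in stretch with BIRB796 and rose by 2.21 ± 0.35 (adjusted p = 0.00758). A second probe of Grem1 gave 2.22 ± 0.41. Fstl3, an inhibitor of activin, rose by 1.37 ± 0.30 (adjusted p = 0.0181). Bmp2, a ligand, fell by 0.81 ± 0.14 (adjusted p = 0.00876), and Tgfbr2, a receptor, by 0.35 ± 0.08 (adjusted p = 0.0266), its other probe being at -0.10 ± 0.27. With BIRB796 alone Grem1 was higher by 2.28 ± 0.35 and Fstl3 by 1.39 ± 0.30. Grem1 and Bmp2 kept their calls with each array left out. The list's rises were 1 without control replicate 4, 5 or 6 and 2 without stretch with BIRB796 replicate 1 or 4, and 1 gene fell without any one of these 5 arrays.

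Genes of the insulin-like growth factor axis that passed fell, and those of Wnt signalling went both ways. Of 17 genes of that axis 4 fell (23.5%, against 6.38% of all genes) and none rose, while 1 rose without control replicate 7. Igfbp5 read 0.69, 0.74, 0.69 and 0.29 on the controls and -2.19, -0.65, -0.87 and -0.78 on the treated arrays, and fell by 1.73 ± 0.32 (adjusted p = 0.0115). Igfbp3 fell by 1.41 ± 0.23 (adjusted p = 0.00843). Both bind insulin-like growth factors, and both kept their calls with each array left out. Among 23 genes of cell adhesion and Wnt signalling 4 rose (17.4%, against 4.77% of all genes) and 5 fell (21.7%, against 6.38%). Wnt4, a ligand, fell by 1.14 ± 0.18 (adjusted p = 0.00813), Axin2, a feedback inhibitor and target of beta-catenin, by 1.17 ± 0.24 (adjusted p = 0.0161), while Fzd4, a receptor, and Dkk3, of the Dickkopf family, rose by 0.72 ± 0.12 and 0.59 ± 0.10. The falls of this list were 1, 1, 3 and 9 without control replicate 4, 5, 6 or 7, and the rises 2 without control replicate 4 or 5.

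**Figure D4:**
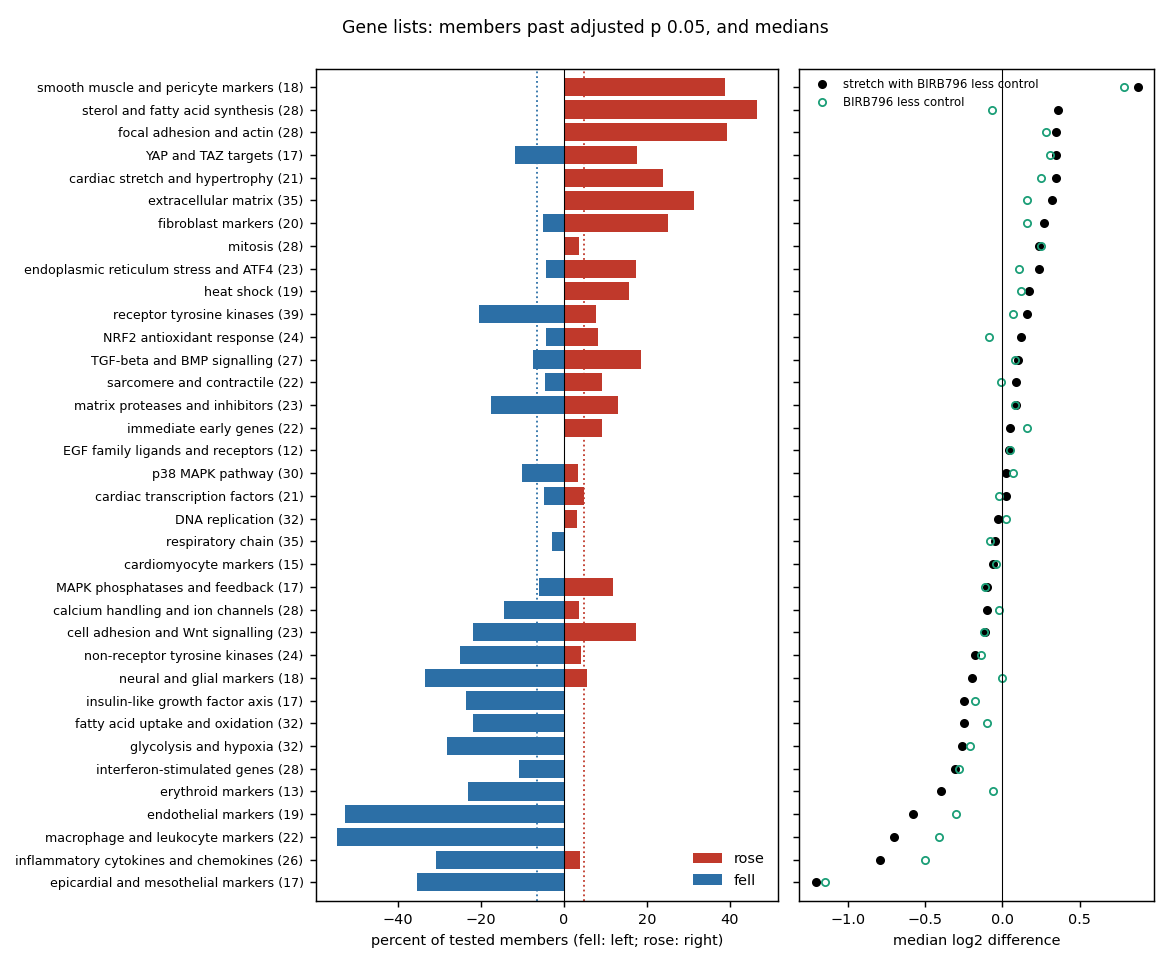
Left, the percent of tested members of each of 36 gene lists (number tested in brackets) that rose or fell between control and stretch with BIRB796, with dotted lines at the 4.77% of all genes that rose and the 6.38% that fell; right, the median log2 difference of each list in that comparison and in BIRB796 against control. Smooth muscle, sterol, focal adhesion and matrix lists have the largest shares of rises and endothelial and macrophage markers the largest shares of falls.

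Among markers of macrophages, red cells, endothelium and epicardium, those that passed fell. Of 22 macrophage and leukocyte markers 12 fell (54.5%, against 6.38% of all genes) and none rose (median -0.70). Cd163 was above background on no array and Ccr2 on 2 of 12. Adgre1, the F4/80 antigen of macrophages, read 3.79, 3.94, 4.17 and 2.97 on the controls and 2.21, 2.45, 2.76 and 2.45 on the treated arrays, which all lay below the controls. It fell by 1.25 ± 0.22 (adjusted p = 0.0101), by 1.58 on slide 6 and 0.37 on slide 8. Cd68, a lysosomal protein of macrophages, fell by 1.13 ± 0.22 (adjusted p = 0.0133). The summed signal of the list was 225 to 432 on the control arrays and 198 to 229 on the treated ones, control replicate 7 being the control nearest to the treated arrays for Adgre1 and Cd68. The count of falls was 3, 2, 3 and 19 without control replicate 4, 5, 6 or 7, 7 and 5 without stretch with BIRB796 replicate 1 or 4, and 0 without slide 6, where the median was -0.69. Adgre1 kept its call with each array left out and had an adjusted p of 0.0784 without slide 6. Of 13 erythroid markers 3 fell (23.1%, against 6.38% of all genes) and none rose (median -0.40). They were Hbe2, an embryonic globin (-0.74 ± 0.15, adjusted p = 0.0139), Tfrc, the transferrin receptor (-0.47 ± 0.10, adjusted p = 0.0178), and Slc4a1, the anion exchanger of the red cell membrane (-0.55 ± 0.13, adjusted p = 0.0250). The other probe of Tfrc gave -0.185 ± 0.169, and Tfrc lost its call without control replicate 4, 5 or 6. The erythroid falls were 1, 0, 1 and 5 without control replicate 4, 5, 6 or 7, 2 without stretch with BIRB796 replicate 3 or 4, and 0 without slide 6.

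Of 19 endothelial markers 10 fell (52.6%, against 6.38% of all genes) and none rose (median -0.58). Sox17 was above background on no array. Esam, an adhesion molecule of endothelial junctions, read -2.26, -2.27, -2.59 and -2.34 on the controls and -4.31, -3.87, -3.99 and -3.88 on the treated arrays. It fell by 1.65 ± 0.23, so that its signal was 3.14-fold lower (adjusted p = 0.00531), and the fall was of like size on slide 6 (2.05) and slide 8 (1.59). Pecam1, CD31, fell by 1.31 ± 0.23 (adjusted p = 0.0104), Nos3, the endothelial nitric oxide synthase, by 1.07 ± 0.18 (adjusted p = 0.00876), Sox18 by 1.32 ± 0.25 and Kdr, the receptor for vascular endothelial growth factor, by 0.83 ± 0.17 (adjusted p = 0.0149). Cdh5, the cadherin that defines endothelium, differed by -0.04 ± 0.15 and Flt1 and Eng, receptors also made by endothelium, by 0.60 ± 0.27 and 0.27 ± 0.15, so that the list did not move as a whole. The summed signal was 9.42 to 12 on the controls and 8.21 to 8.71 on the treated arrays. With BIRB796 alone the median was -0.30. The falls were 6 without control replicate 4 or 5, and 2 without slide 6. Esam, Pecam1, Nos3, Sox18 and Kdr kept their calls with each array left out.

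Of 17 epicardial and mesothelial markers 6 fell (35.3%, against 6.38% of all genes) and 16 were negative (median -1.21, and -1.15 with BIRB796 alone). Krt7 and Krt19, keratins of mesothelium, fell by 1.71 ± 0.35 (adjusted p = 0.0151) and 1.31 ± 0.28 (adjusted p = 0.0174). Muc16, a surface mucin of mesothelium, was above background on all 4 control arrays and on no treated array, and was at least 2.93-fold lower there (fitted difference -2.91 ± 0.55, adjusted p = 0.0124). Wt1 and Tbx18, transcription factors that define epicardium, differed by -0.59 ± 0.23 and -0.27 ± 0.14 and did not pass. The summed signal was 32.3 to 56.2 on the controls and 17.0 to 26.0 on the treated arrays. The falls were 3, 2 and 3 without control replicate 4, 5 or 6, and 0 without slide 6, where the median was -0.81. What part the cell types of these 4 lists have in the other results was not tested.

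Of 26 inflammatory cytokines and chemokines 8 fell (30.8%, against 6.38% of all genes) and 1 rose (3.85%, against 4.77%). The median was -0.79, and -0.41 with normexp and quantile scaling. Il1a, interleukin 1 alpha, read -1.67, -1.36, -0.91 and -3.83 on the controls and -4.04, -4.79, -4.79 and -4.42 on the treated arrays. Control replicate 7 lay near the treated group and the other 3 controls far above it. The fall was 2.57 ± 0.65 (adjusted p = 0.0302), and 3.05 ± 0.52 on a second probe. Complement C3 fell by 1.33 ± 0.27 (adjusted p = 0.0153) and the interferon-induced chemokine Cxcl11 by 1.02 ± 0.22 (adjusted p = 0.0181), while Cxcl12, which draws progenitor and immune cells, rose by 0.50 ± 0.10 (adjusted p = 0.0131). Ptgs2, the inducible prostaglandin synthase, differed by 0.40 ± 0.35 and did not pass. No cytokine fell without control replicate 4, 5 or 6 or without slide 6, 13 fell without control replicate 7, and 3, 2, 2 and 2 fell without stretch with BIRB796 replicate 1, 2, 3 or 4. The rise of Cxcl12 was lost without control replicate 5 (adjusted p = 0.0504). Il1a was called only without control replicate 7 among the fits that left out 1 array.

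Among 23 matrix proteases and their inhibitors 3 rose (13%, against 4.77% of all genes) and 4 fell (17.4%, against 6.38%). The list's median was 0.09. Mmp16, a matrix metalloproteinase of the cell membrane, rose by 0.68 ± 0.14 (adjusted p = 0.0170), and Plat, tissue plasminogen activator, by 0.54 ± 0.09 (adjusted p = 0.00826). Among the genes that fell, Mmp9, a gelatinase, differed by -2.87 ± 0.77 (adjusted p = 0.0373) and Adamts9, a protease of proteoglycans, by -0.38 ± 0.08 (adjusted p = 0.0164). Plat kept its call with each array left out, Mmp16 lost it without control replicate 4, 5 or 6, and Mmp9 was called only without control replicate 7. Mmp7, a metalloproteinase outside the list, read -6.50 to -4.83 in control and -9.78 to -7.03 in stretch with BIRB796, where 1 of 4 arrays was above background, so that its fitted difference (-3.37 ± 0.73, adjusted p = 0.0185) has no exact size. It lost its call without control replicate 4, 5 or 6 or stretch with BIRB796 replicate 4. The list's rises were 1 without control replicate 4, 5 or 6 and 5 without control replicate 7. Its falls were 1, 0 and 0 without control replicate 4, 5 or 6, 2 without stretch with BIRB796 replicate 1, 2 or 3 and 1 without replicate 4. Without slide 6 none rose or fell.

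Of genes of fuel use, those that passed fell, in shares above the 6.38% of all genes for glycolysis and fatty acids and below it for the respiratory chain. Of 32 genes of glycolysis and hypoxia 9 fell (median -0.26) and 30 were negative. Slc2a4, the insulin-regulated glucose transporter, read 0.33 to 0.52 in control and -0.64 to -0.07 in stretch with BIRB796 and fell by 0.79 ± 0.13 (adjusted p = 0.00864). Aldoc, an aldolase, fell by 0.66 ± 0.11 (adjusted p = 0.00876). Of 32 genes of fatty acid uptake and oxidation 7 fell (median -0.25), with Acsl1, an acyl-CoA synthetase, down by 0.44 ± 0.09 (adjusted p = 0.0134) and Etfdh, which passes electrons from fatty acid oxidation to the respiratory chain, down by 0.40 ± 0.07 (adjusted p = 0.0118). Among 35 respiratory chain genes 1 fell (2.86%), Cox8b, a subunit of cytochrome oxidase in muscle (-1.16 ± 0.19, adjusted p = 0.00871), and the list's median was -0.05. These 5 genes kept their calls with each array left out. The glycolysis falls were 3 and 4 without control replicate 5 or 6 and 3 without slide 6. The fatty acid falls were 2 without control replicate 4, 5 or 6, 11 without control replicate 7, and 4, 3 and 4 without stretch with BIRB796 replicate 1, 3 or 4. None fell without slide 6, and 1 fell with scaling by the array median.

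Stretch with BIRB796 was set against stretch without it through the earlier session, which held 3 control and 3 stretch arrays, of which none are shared. In that session each stretch array shared a slide with the control array of the same number. The fit did not use this pairing, and a test within slides was not run here. No gene passed there between stretch and control, and 751 had an unadjusted p under 0.05. The difference between the 2 effects was called at 0 of the genes tested by limma, with 564 at an unadjusted p under 0.05. With array weights 32 were called, and 1 without stretch with BIRB796 replicate 1. Across 20113 genes measured in both, the differences correlated at r = 0.378 (Spearman 0.311), a description over genes, which are not independent. Of 2240 genes called between stretch with BIRB796 and control, 1766 (78.8%) had the same sign under stretch alone, against 61.1% of all genes. Their median size was 0.63 with BIRB796 and 0.24 in that direction with stretch alone. The share was 83.6% of genes that rose and 75.3% of those that fell, and 59.9% of all genes were positive under stretch alone.

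Errors of single genes in this comparison come from the fit of all arrays. Its estimate of the spread includes stretch replicate 7, scanned in neither of these sessions, which differed from the other stretch arrays by 12.5 to 14.5 times the spread between repeated spots. Nppa differed by 1.30 ± 0.68 under stretch alone and Nppb by 1.46 ± 0.72, near their 1.89 and 2.04 with BIRB796. Xirp2 differed by 1.52 ± 0.55 and Areg by 2.30 ± 0.68. Myh3, Grem1 and Lmod1, at 2.97, 2.21 and 1.83 with BIRB796, were at -0.13 ± 0.60, 0.02 ± 0.45 and 0.26 ± 0.67 under stretch alone. The test of these differences, adjusted over all genes, passed for none of them. The 2 values of Lmod1 come from different probes, and its tested difference, on the probe used in the fit of all arrays, was 1.41 ± 0.88. Of the sterol genes Idi1 was at 0.55 ± 0.20 and Hmgcs1 at 0.63 ± 0.23 under stretch alone, while Fdps was at 0.34 ± 0.26 and Lss at -0.08 ± 0.23. The 2 sessions differed in scanner software version, and the session and the presence of BIRB796 cannot be told apart in this comparison.

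**Figure D5:**
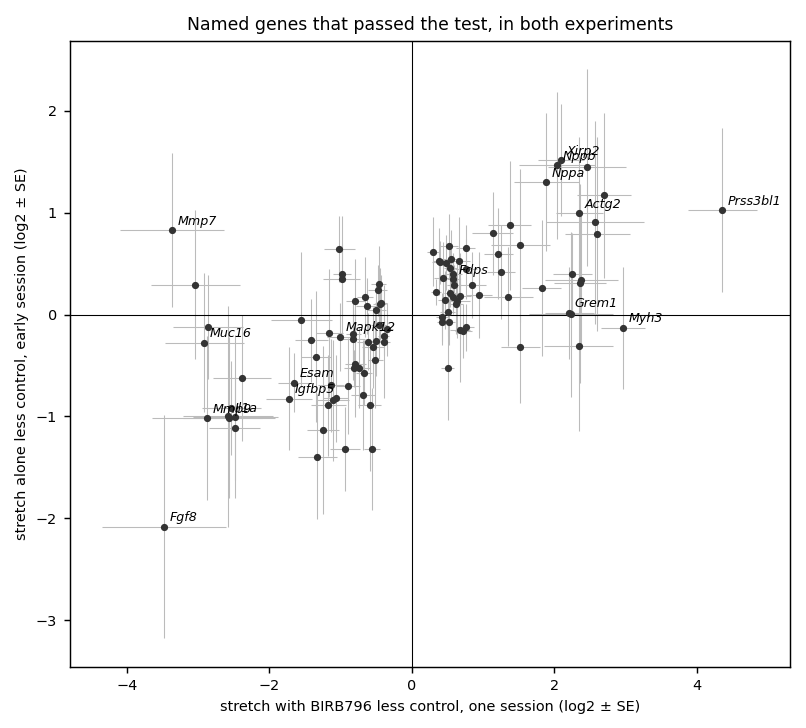
Log2 differences with standard errors of the 110 named genes called between stretch with BIRB796 and control (horizontal axis) against stretch alone and control in the early session (vertical axis). The sign is the same for 87 of the 110, and Myh3 and Grem1 lie near 0 on the vertical axis. For some genes, among them Lmod1 and Cxcl12, the 2 axes use different probes.

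Of the genes with the largest changes, Prss3bl1 read -5.92 to -5.21 in control and -2.24 to 0.36 in stretch with BIRB796, a difference of 4.36 ± 0.49 (adjusted p = 0.00265). It was the highest rise among genes with a symbol. Grm8, a glutamate receptor, was above background on none of the 4 controls and all 4 treated arrays and was at least 2.51-fold higher. Stmn4 and Map2, which act on microtubules in neurons, rose by 2.70 ± 0.38 (adjusted p = 0.00567) and 2.38 ± 0.51 (adjusted p = 0.0176). Stmn4 kept its call with each array left out, and Map2 lost it without control replicate 4, 5 or 6 (adjusted p up to 0.0626). Other neural genes fell, with Nefm, a neurofilament chain, down by 0.98 ± 0.13 (adjusted p = 0.00488) and Elavl4, an RNA-binding protein of neurons, by 0.82 ± 0.11 (adjusted p = 0.00490). Of 18 neural and glial markers 1 rose (5.56%, against 4.77% of all genes) and 6 fell (33.3%, against 6.38%). None of these markers rose without any one of the 8 arrays other than control replicate 7 or stretch with BIRB796 replicate 2, and 2 rose without the former. The falls were 3, 2 and 3 without control replicate 4, 5 or 6, and 3 and 2 without stretch with BIRB796 replicate 1 or 4. Fgf8, a fibroblast growth factor, was fitted at -3.47 ± 0.87 (adjusted p = 0.0299), with values of -3.47 to -3.01 on control replicates 4 to 6, -5.40 on control replicate 7 and -9.86 to -5.54 on the treated arrays. Replicate 1, the lowest of these and the one on slide 6, was not above background, so that the size of the difference is not exact. On slide 8 it fell by 0.56. Fgf8 lost its call without control replicate 4, 5 or 6 or stretch with BIRB796 replicate 1 or 4.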

How the data were processed

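The arrays were Agilent 1-colour designs for rat. Spot intensity in the deposited scanner files is linear and background-subtracted and has no scaling across arrays, per the file headers. A further deposited table gives log2 values of unknown baseline, which matched 75th percentile scaling within 0.0056. It served as an alternative. Control and outlier spots were left out, log2 processed signals were averaged per probe, and set relative to the 75th percentile of the array. A filter kept 23213 of 30367 probes, those above background on 4 or more of the 12 arrays, with the brightest probe per gene, named through a RefSeq table (GRCr8).

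One limma 3.58.1 fit (R 4.3.3) held the 12 arrays of the session, with Benjamini-Hochberg adjustment over 20192 genes, two-sided. The early session was read from a fit of all arrays with a mean per group and session, in which stretch replicates 4 and 5, which differed by less than the noise between repeated spots, were counted as 1 sample. The normexp alternative used median spot signals, because mean signals were not in most files. A probe below background on a whole group gets a bound against the lowest signal above background. The comparison, the 36 lists and the motifs were chosen with earlier results of these data known. The named genes were the 12 largest called changes each way with a symbol, for each list the 2 called members of smallest p in each direction, and 22 panel genes. Other genes named with values, such as Idi1, Hmgcs1, Hsd17b7, Insig1, Sqle, Scd, Gli1, Angptl4, Myh11, Rgs5, Pecam1 and Cd68, were chosen after their values were seen. Some genes are not reported here by name, though counts over lists include them. Array signal and 4 arrays a group limit the precision.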

Additional observations from a re-analysis of the deposited data

Results flagged for a closer look

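Among 253 groups of 4 arrays of the 127 named genes, 24 held an array whose gap to the next one was above Dixon's 95% critical value. Chance flags about 1 in 20 groups. Stretch with BIRB796 replicate 1 accounted for 15 of them and control replicate 7 for 7.

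Stretch with BIRB796 replicate 1 was the highest of its group for Dusp1 (-1.25, the others at most -2.74), Ptgs2 (-4.55 against -6.22), Fosl1 (-3.09 against -4.30), Nppa (4.39 against 2.76), Fbln5 (3.63 against 2.62), Fstl3 (2.32 against 1.12), Fjx1 (-2.80 against -3.31), Kif23 (1.62 against 1.01) and Myh7 (7.43 against 7.30). It was the lowest for Dct (-8.62, not above background, the others at least -5.96), Igfbp5 (-2.19 against -0.87), Kdr (0.37 against 1.03), Pdgfra (1.97 against 2.42), Sdf2l1 (2.19 against 2.39) and Wnt4 (-2.06 against -1.50).

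Control replicate 7 was the highest of its group for Gldn (-3.30, the others at most -4.10), S100a4 (5.15 against 4.91) and Mapk14 (4.05 against 3.92), and the lowest for C3 (4.25 against 5.10), Cyp2e1 (-3.90 against -2.04), Igfbp5 (0.29 against 0.69) and Dusp1 (-2.78 against -2.45). Stretch with BIRB796 replicate 3 was lowest for Nos3 (-4.74 against -4.38) and replicate 4 for Hbe2 (-6.50 against -5.87).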

How the results depend on the processing

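The 2252 genes called between stretch with BIRB796 and control came to 1481 with those groups alone in the fit, 23 with all arrays and the scan session as a term, 88 with slide as a fixed term, 560 with control replicates 5 and 6 averaged, 1423 without a filter on dim probes, 7736 with array weights, 379 without slide 6 and 12 with the arrays of a group on 1 slide averaged. The last pair were chosen after seeing the data. With single arrays left out it ran from 475 to 4391. Slide as a random block (2171), median scaling (1728, 48.9% of them higher, against 42.8%), normexp (2750), the authors' table (2231), a filter on all 12 arrays (2557), mean probes (2214) and a trend (2928) stayed within 1.5 times. Of the 2252, 2251 kept their sign in the fit of all arrays and 2250 with mean probes, and all that were tested did in the others. All these fits reuse arrays that made the calls. Stretch with BIRB796 against BIRB796 (25) gave 0 with these groups alone, 0 with all arrays, 6 with a fixed slide, 12 with median scaling, 8 without a filter, 181 with weights, 10 without slide 6 and 0 with slide averages (left-out arrays, 0 to 34). BIRB796 against control (742) gave 0 with all arrays, 315 and 0 with slide random or fixed, 1249 with normexp, 0 with control replicates 5 and 6 averaged, 308 without a filter, 5574 with weights, 1298 with a trend, 183 without slide 6 and 0 with slide averages (0 to 2746). The difference from the early session gave 32 with weights and 0 to 1 with arrays left out. The cause of these shifts was not tested. With the replicate block the counts were 1, 0 and 0. Same-numbered arrays correlated at 0.581, 0.059, 0.098 and 0.100 between the BIRB796 groups. Between stretch with BIRB796 and control, with control replicates 4 to 7 taken as numbers 1 to 4, they correlated at 0.257, 0.072, -0.04 and 0.083. The first pair of each set shares slide 6, and the last pair of the BIRB796 groups shares slide 9. The numbers were therefore not taken as pairs.

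Genes that did not pass changed sign in some settings: Actc1 (-0.046 with a fixed slide, -0.03 with normexp), Myh6 (-0.084, -0.11), Tnnt2 (-0.13, -0.10), Dusp1 (-0.29 with weights, -0.33 without slide 6, -0.36 to 0.204 with single arrays left out) and Ptgs2 (-0.025 without slide 6, -0.036 to 0.549 with single arrays left out). Of 110 named genes called, 51 kept the call with each of the 8 arrays left out, 33 without slide 6 and 8 with a fixed slide, and all 110 kept their sign in every setting. Every setting reuses arrays that made these calls.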
